A study of Mus musculus with 6 samples.

Results

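The classical cadherins described here are 10 genes of the deposited count table, Cdh1, Cdh2, Cdh3, Cdh4, Cdh5, Cdh6, Cdh10, Cdh11, Cdh13 and Cdh15, chosen by name as members of the cadherin family and found by their Ensembl identifiers among 57180 genes. They were measured in 6 libraries of cultured cells from mouse calvaria, the skull vault, by 3′ end sequencing of mRNA. The 3 gld libraries are those titled FasL KO, whose donor strain B6Smn.C3-Faslgld/J carries 2 copies of the gld allele of Fasl, and the 3 wt libraries are from C57BL/6 mice. The gld allele is a point mutation that disables Fas ligand, which triggers cell death through the receptor Fas, and it leaves the gene in place. Both groups were differentiated with ascorbate and β-glycerophosphate in the medium and, per the design text, cultured for another 72 h from day 14. Nothing in the labels says that the wt mice were littermates of the gld mice, or how many animals or cultures stand behind the libraries of a group, so a p-value here rests on how libraries of a group differ, which may reflect handling alone. Another arm of gld cells given recombinant Fas ligand is mentioned in the design text and was not analysed here.

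Cadherins are calcium-dependent adhesion receptors that join a cell to its neighbour, mostly by binding the same cadherin on the other cell. The outermost extracellular domain makes the contact by swapping a short arm with its partner, and the cytoplasmic tail binds p120-catenin and β-catenin, which α-catenin connects to actin. Type I members (Cdh1, Cdh2, Cdh3, Cdh4 and Cdh15) dock 1 tryptophan into the partner and type II members (Cdh5, Cdh6, Cdh10 and Cdh11) dock 2, while Cdh13 is an outlying relative that lacks both that tryptophan and the cytoplasmic tail and is held to the membrane by a lipid anchor. In bone, Cdh11 (OB-cadherin) and Cdh2 (N-cadherin) are the members best known from osteoblasts and their precursors.

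The arm is written at the start of the mature protein, just after the basic site at which the prodomain is cut off. The first 60 coding bases after that site are shown for the members on which the results turn, and for Cdh4, to make the 3 kinds of cadherin visible. They are 5′ to 3′ on the coding strand, from the GENCODE M21 transcripts on GRCm38, and capitals mark the in-frame tryptophan codon TGG.
Cdh11, type II, chr8:102679621-102679680, minus strand: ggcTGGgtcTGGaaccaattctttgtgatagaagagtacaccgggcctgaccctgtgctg
Cdh6, type II, chr15:13091659-13091718, minus strand: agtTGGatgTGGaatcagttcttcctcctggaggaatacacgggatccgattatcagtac
Cdh13, no arm tryptophan, chr8:118757416-118757475, plus strand: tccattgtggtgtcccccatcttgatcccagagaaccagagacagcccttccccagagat
Cdh1, type I, chr8:106653582-106653641, plus strand: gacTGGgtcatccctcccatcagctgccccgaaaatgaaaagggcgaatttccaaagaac
Cdh4, type I, chr2:179797560-179797619, plus strand: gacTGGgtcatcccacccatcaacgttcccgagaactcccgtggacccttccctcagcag

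Each stretch lies in a single coding exon. Cdh11 and Cdh6 carry TGG at codons 2 and 4 of the stretch, Cdh1 and Cdh4 at codon 2 only, and Cdh13 nowhere in its 20 codons. Among several basic sites, one with tryptophan at codon 2 after it was preferred, so TGG at codon 2 was partly set by that choice. Cdh11 and Cdh6 are identical at 35 of the 60 bases, Cdh1 and Cdh4 at 38, and Cdh11 and Cdh1 at 22. From the cut to the stop codon Cdh13 has 576 codons, against 723 to 747 codons in the other 9 members.

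The gld libraries held 4048258 to 5245546 counts and the wt libraries 2011173 to 3105322. The mutation could not be checked from the counts, since Fasl was listed at 0 in all 6 libraries. Of the markers for the label of osteoblasts, collagen I was counted in every library (Col1a1 at 104603 to 127099 counts in gld and 13394 to 29963 in wt). The other 11 osteoblast markers were sparser: Bglap, Spp1 and Sp7 had 1, 4 and 20 counts over the 6 libraries, and Omd, Ibsp, Phex and Dmp1 had 457, 100, 91 and 73, nearly all in gld. These counts do not settle that label in either group. Among the junction genes described further on, the median count summed over all libraries was 3 for the 64 whose 3′ end is common to several annotated transcripts, and 247 for the 75 whose last 300 exonic bases belong to 1 transcript. Some with a shared end were well counted, such as Enah with 9782 and Prrx1 with 6181 counts. Of the 75, 14 were at 0 in all libraries, so a single-transcript end did not always come with counts. Among the cadherins, Cdh10 (0% of these bases in a single transcript) and Cdh2 (48.7%) have shared ends and the other 8 do not, and in the annotation no exon of another gene lies over the last bases of any of the 10.

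Cdh11 had the most counts of the 10 genes in both genotypes and was 3.45-fold higher in gld, while Cdh6 and Cdh13, next in counts in wt, were 12.6-fold and 5.07-fold lower. Cdh2 and Cdh10, whose 3′ ends are shared between transcripts, cannot be placed in that order. Cdh1 was counted only in gld. Of the 10 genes, 6 passed the filter on low counts, and edgeR's quasi-likelihood test at an adjusted p of 0.05 called 2 of these higher (Cdh1 and Cdh11) and 2 lower (Cdh6 and Cdh13), while Cdh2 and Cdh3 did not pass. Over all 8692 genes tested, 17.4% were called, 9.74% higher and 7.69% lower in gld. Cdh1 passed the filter through the gld libraries alone, so its call and its separation from wt were set by the filter. With libraries scaled by size alone, the median over all tested genes was −0.14 in place of 0.02 on the log2 scale and 42.5% of all calls were higher in place of 55.9%, which changed none of the cadherin calls.

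**Figure D1:**
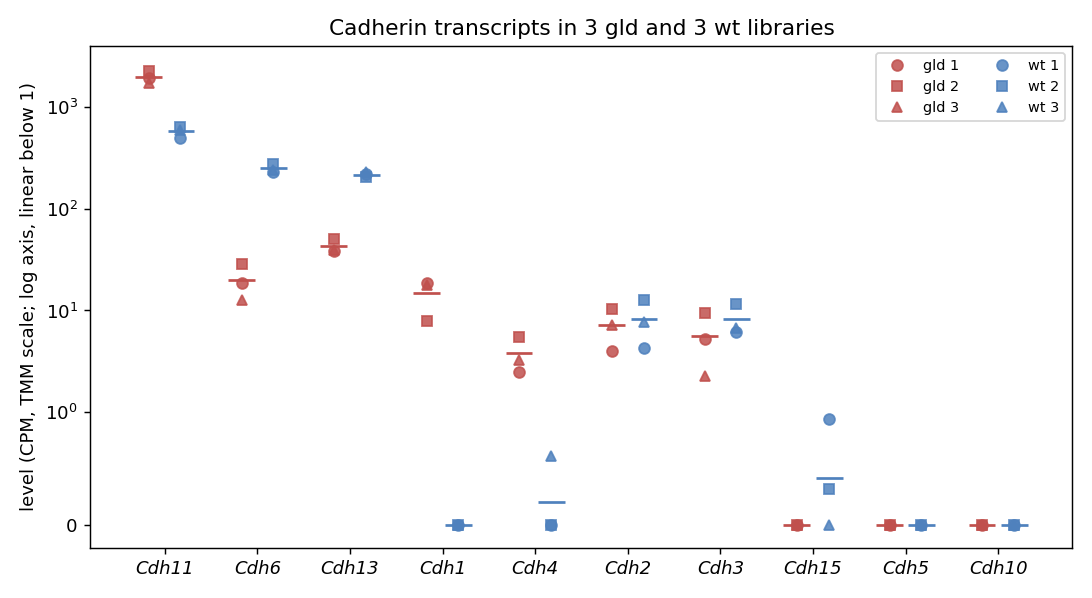
Level of each of the 10 cadherins in each library, in CPM (counts scaled to a common library size, with edgeR's TMM factors), on a log axis that is linear below 1. Red symbols are the 3 gld libraries, blue symbols the 3 wt libraries, symbol shapes the library numbers and horizontal lines group means. Cdh11 lies higher and Cdh6 and Cdh13 lie lower in all gld libraries, Cdh1 and most of Cdh4 are seen in gld, and the groups overlap in Cdh2 and Cdh3.

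Cdh11 (ENSMUSG00000031673, GRCm38 chromosome 8, 102632095 to 102785642, minus strand) encodes OB-cadherin, a type II cadherin of osteoblasts and other mesenchymal cells. It had 7772, 8667 and 8497 counts in the gld libraries, against 1060, 2024 and 1921 in the wt libraries. On the TMM scale these were levels of 1939, 2285 and 1744 CPM in gld, against 498, 640 and 590 CPM in wt. Every gld library lay above every wt library. The log2 fold change of 1.79 ± 0.13 (SE) had an adjusted p = 1.75e-07 in edgeR, and it ran from 1.65 to 1.87 when each library was left out in turn.

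Cdh6 (ENSMUSG00000039385, chromosome 15, 13028701 to 13173675, minus strand) encodes K-cadherin, a type II cadherin first known from kidney and also found in neural crest derivatives. It had 75, 108 and 62 counts in gld, against 488, 880 and 787 in wt, although the gld libraries were deeper. Its level was 18.7, 28.5 and 12.7 CPM in gld, against 229, 278 and 242 CPM in wt. The groups lay far apart, and gld 2 was the highest of the gld libraries. In edgeR the level fell by 3.66 ± 0.25 (SE) on the log2 scale (adjusted p = 1.04e-07), and the log2 fold change was −4.02 without gld 2 and −3.42 without gld 3, the extremes among the 6 libraries left out.

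Cdh13 (ENSMUSG00000031841, chromosome 8, 118283733 to 119324921, plus strand) encodes T-cadherin, the lipid-anchored member, which also serves as a receptor for adiponectin. It had 154, 193 and 190 counts in gld, against 463, 644 and 747 in wt. Its level was 38.4, 50.9 and 39.0 CPM in gld, against 218, 204 and 229 CPM in wt. All gld libraries again lay below all wt libraries. In edgeR, Cdh13 fell by 2.34 ± 0.17 (SE) on the log2 scale (adjusted p = 2.61e-07), and leaving out each library gave −2.51 to −2.29.

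Groups did not overlap in Cdh6, Cdh11 and Cdh13 or, by way of the filter, in Cdh1, and they did not overlap in 33.3% of all tested genes. The sequencing cannot tell fewer cells that carry a transcript from less of the transcript in each cell, here and in what follows.

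Cdh1 (ENSMUSG00000000303, chromosome 8, 106603351 to 106670246, plus strand) encodes E-cadherin, the type I cadherin of epithelia. It had 75, 30 and 87 counts in gld, or 18.7, 7.91 and 17.9 CPM, and 0 counts in each wt library. The 3 gld libraries differed among themselves, with gld 2 the lowest. Set against a floor of 3 counts over the wt group, 0.351 CPM, the mean level in gld was at least 42.2-fold higher, a bound that leaves out the error of the gld mean. The edgeR adjusted p was 0.000258, and over the 12 alternatives tried it ran up to 0.0132, in limma-voom. Of 10 other epithelial markers 8, among them Epcam, Krt8, Krt5 and Krt14, were listed at 0 in every library, and the summed level of the 10 was 0 to 5.95 CPM in gld and 1.26 to 13.2 CPM in wt, most of it Krt18. A listing at 0 does not show absence in this table, since Csf1r, Fcer1g, Tyrobp and Adgre1 were also at 0 beside other macrophage markers with many counts. Of 15 macrophage markers 10 were tested, 9 were higher and 1, Cd14, was lower, beside 9.74% higher and 7.69% lower over all genes tested. The higher ones other than Lyz2 had at most 8 counts in any wt library. They passed the filter through the gld libraries alone, so their direction was set by the filter. Lyz2, the most counted, had 7143, 11154 and 24281 counts in gld and 7, 378 and 60 in wt, and Cd14 had 283, 262 and 671 counts in gld and 592, 974 and 771 in wt. The summed level of the 15 was 2362, 3764 and 6511 CPM in gld and 281, 432 and 255 CPM in wt, where Cd14 was most of it. The part of epithelial cells or macrophages in the Cdh1 counts was not tested.

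Cdh3, which encodes P-cadherin, lies 46053 bases upstream of Cdh1 on the same strand of chromosome 8 and did not follow it. Cdh3 had 21, 36 and 11 counts in gld, or 5.24, 9.49 and 2.26 CPM, against 13, 37 and 22 counts in wt, or 6.11, 11.7 and 6.75 CPM. The groups overlapped. The log2 fold change of −0.54 ± 0.70 (SE) had an adjusted p = 0.709 in edgeR and a 95% interval from −1.92 to 0.83, which leaves room for changes of either sign.

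Cdh2, which encodes N-cadherin, had 16, 39 and 35 counts in gld, or 3.99, 10.3 and 7.18 CPM, against 9, 40 and 25 counts in wt, or 4.23, 12.6 and 7.68 CPM. The groups overlapped almost fully. The log2 fold change of −0.21 ± 0.65 (SE) had an adjusted p = 0.900 in edgeR and a 95% interval from −1.47 to 1.06. Most of its last 300 bases are common to several transcripts, so its level cannot be set against that of Cdh11.

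Cdh4 (ENSMUSG00000000305, chromosome 2, 179442431 to 179899373, plus strand), which encodes R-cadherin, a type I cadherin of the retina and nervous system, had 10, 21 and 16 counts in gld, against 0, 0 and 2 in wt. It did not pass the filter on low counts. All gld libraries lay above all wt libraries, and the pooled level was 15.9-fold higher in gld, with a 95% counting interval from 4.15 to 135 that leaves out the spread between libraries. When genes with 30 or more counts in all were tested, its edgeR adjusted p was 0.136, and with no filter 0.237, so it was not called.

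Cdh15, which encodes M-cadherin of skeletal muscle precursors, had 0 counts in each gld library, against 2, 1 and 0 in wt. With at most 3 counts on either side no fold can be given. Of 14 other skeletal muscle markers, 7 were at 0, among them Myf5 and Pax7, and the summed level was 18.9 to 34.7 CPM in gld and 4.43 to 7.05 CPM in wt. Most of these counts were Acta1, with 82, 70 and 91 in gld and 10, 5 and 11 in wt. Acta1 was the 1 marker called of the 2 tested, beside 17.4% of all genes tested. Cdh5 (VE-cadherin of endothelium) and Cdh10, a type II cadherin of brain, were listed at 0 in all 6 libraries. Among 11 other endothelial markers 8 were at 0, Pecam1, Tie1 and Vwf among them. Plvap had 35, 3 and 45 counts in gld and 1, 9 and 0 in wt. Kdr had 28, 14 and 30 counts in gld and 1, 0 and 17 in wt. The summed level of the 11 was 4.48 to 15.7 CPM in gld and 1.88 to 5.22 CPM in wt, with 2 markers tested and none called. From counting error, 0 counts leave room for up to 0.237 CPM over the gld group and 0.351 CPM over the wt group, but the shared end of Cdh10 means that 0 sets no firm bound on its transcript. Nor is the bound firm for Cdh5, since a single-transcript end did not always come with counts.

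The make-up of the cadherin counts does not depend on how libraries are scaled against each other, and Cdh11 filled nearly all of it in gld. Because 3′ end counting gives about 1 tag per molecule whatever the transcript length, counts of members with a single-transcript end are set side by side here. How fully each such end was counted was not tested, so levels of different members compare only roughly. The sum also holds Cdh2 and Cdh10, whose shared ends make their counts, and so the make-up of the transcripts, less certain. Cdh11 took 95.7%, 95.3% and 95.5% of the summed counts of the 10 genes in gld, against 52.1%, 55.8% and 54.8% in wt. The exact 95% binomial intervals of these shares, which cover counting error only, lay between 94.8% and 96.1% in gld and between 49.9% and 57.4% in wt. Cdh6 took 0.94% ± 0.25 in gld and 23.6% ± 0.97 in wt, and Cdh13 took 2.05% ± 0.13 in gld and 20.6% ± 2.57 in wt (SD, n = 3). The shares of the other 3 tested members were at most 1.10% in any library, with Cdh2 at 0.34% ± 0.12 in gld and 0.75% ± 0.33 in wt and Cdh3 at 0.26% ± 0.14 in gld and 0.76% ± 0.22 in wt. Groups did not overlap in the share of any of the 6 tested members, and for each the two-sided exact permutation test gave p = 0.1, the smallest that 3 against 3 libraries allow, and 0.1 after adjustment over the 6. In level rather than share, groups did not overlap in 33.3% of all genes tested. The separation of Cdh1 was set by the filter. In Cdh2 and Cdh3 the counting intervals of the nearest libraries overlapped. For Cdh2 these were gld 2 at 0.43% (0.31% to 0.59%) and wt 1 at 0.44% (0.20% to 0.84%). Shares sum to the whole, so a larger share of Cdh11 goes with smaller ones elsewhere.

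**Figure D2:**
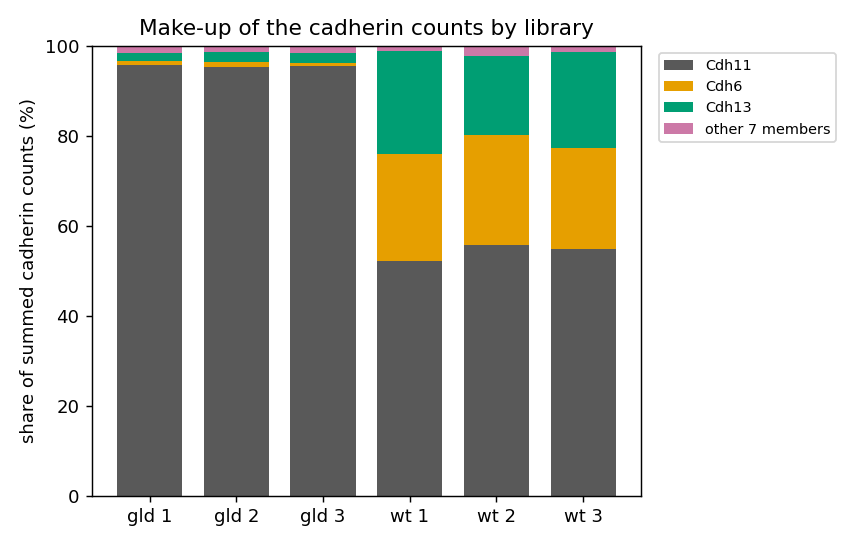
Share of each cadherin in the summed counts of the 10 genes, in percent, 1 bar per library with the gld libraries on the left and the wt libraries on the right. Cdh11 fills 95.3% to 95.7% of each gld bar and 52.1% to 55.8% of each wt bar, where Cdh6 and Cdh13 share most of the rest.

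The summed level of the 10 genes was 2026, 2398 and 1827 CPM in gld, against 956, 1146 and 1076 CPM in wt. Without Cdh11 the order was the reverse, with 87.6, 113 and 82.3 CPM in gld against 458, 506 and 486 CPM in wt. By type, the 3 type II members other than Cdh11 summed to 12.7 to 28.5 CPM in gld and 229 to 278 CPM in wt, all of it Cdh6. Type II was thus not a direction of change: Cdh11 was higher and Cdh6 lower in the same libraries. The 5 type I members summed to 30.4 to 33.2 CPM in gld and 11.3 to 24.7 CPM in wt. Cdh1 made up 18.7, 7.91 and 17.9 CPM of this in gld and 0 in wt, and without it the groups overlap. The type I sum also holds Cdh2, with its shared end. The ratio of Cdh11 to Cdh6 counts was 104, 80.2 and 137 in gld, against 2.17, 2.30 and 2.44 in wt.

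The order of the levels changed among the lesser members. In gld, Cdh13 (38.4 to 50.9 CPM) came next after Cdh11, followed by Cdh6 (12.7 to 28.5 CPM) and Cdh1 (7.91 to 18.7 CPM), whose ranges overlap. In wt, Cdh6 (229 to 278 CPM) and Cdh13 (204 to 229 CPM) stood next to each other with touching ranges, and the ratio of Cdh6 to Cdh13 counts was 0.487, 0.560 and 0.326 in gld and 1.05, 1.37 and 1.05 in wt. Cdh3 and Cdh4 overlapped with each other in gld, and Cdh2 is left out of the order for its shared end.

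The 3 genes whose pattern over the 6 libraries was most like that of Cdh11, by the root mean square difference of centred log2(CPM + 1) among 4558 named genes with a mean of at least 10 CPM, were Zfp703, Pcdhb22 and Col1a1. Zfp703, which encodes a zinc finger repressor, differed by 0.089, and had 473 ± 32.4 CPM in gld and 130 ± 17.5 CPM in wt (SD, n = 3). Pcdhb22, a clustered protocadherin, differed by 0.117, with 27.5 ± 2.54 CPM in gld and 6.98 ± 0.81 CPM in wt. Col1a1, the α1 chain of collagen I, also differed by 0.117, with 27144 ± 1821 CPM in gld and 7621 ± 1653 CPM in wt. The likeness rests mainly on the difference between the groups, which many genes share. Osteoblast markers other than Cdh11 summed to 61441 to 67686 CPM in gld and 16316 to 23995 CPM in wt over 13 markers, nearly all of it Col1a1 and Col1a2. Of the 8 that were tested 6 were higher and 1 lower, namely Alpl, at 169, 188 and 258 counts in gld against 381, 821 and 739 in wt. Among the higher ones, Omd, Ibsp, Phex and Dmp1 had at most 2 counts in any wt library. These passed the filter through gld alone, which set their direction. Over all genes tested, 9.74% were called higher and 7.69% lower. Smooth muscle and myofibroblast markers were lower beside Cdh6 and Cdh13, at 3707 to 3914 CPM in gld and 7661 to 8085 CPM in wt over 12 markers. Most of it was Acta2, and Actg2 and Mcam were at 0. Of 8 tested, none was higher and 6 were lower. Chondrocyte markers were higher beside Cdh11, at 1223 to 1313 CPM in gld and 234 to 241 CPM in wt over 12 markers, of which Col9a1 and Snorc were at 0. Most of that sum was Sox9, with means of 788 CPM in gld and 215 CPM in wt, while Col2a1 had 9 counts in all. Of 7 tested, 6 were higher and none lower. Among the higher ones, Col11a2, Matn3 and Acan had at most 7 counts in any wt library and passed the filter through gld alone. The part of shifts between such cell types in the cadherin values was not tested.

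The proteins that cadherins work with were followed in 5 lists of 140 entries, of which 55 could be tested. In these lists 12 genes were called higher and 12 lower in gld, and the share called ran from 22.2% to 54.5% of the tested genes of a list, beside 17.4% of all genes tested. The higher ones include Cadm4, Cdhr3 and Icam1, which had 0 or 1 count in wt and so passed the filter through the gld libraries alone. Of these 24 calls, 17 held under every alternative that tested the gene. The lists were written with earlier results of these data known and are described by counts only.

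In the list of catenins and junction plaque proteins, 11 of 26 genes were tested, 2 were higher, 2 lower and 7 did not pass, with a median log2 fold change of −0.36 beside 0.02 for all genes tested. Actn1, the α-actinin that crosslinks actin at adhesions, was at 625 ± 41.0 CPM in gld and 1308 ± 127 CPM in wt and fell by 1.06 ± 0.11 (SE) on the log2 scale. Lpp, a LIM protein of adhesions and actin bundles, was at 620 ± 20.9 CPM in gld and 1422 ± 325 CPM in wt and fell by 1.20 ± 0.14. Ctnnbip1, which encodes an inhibitor of the binding of β-catenin to TCF factors, rose by 0.92 ± 0.13, to 285 ± 7.48 CPM in gld against 150 ± 12.3 CPM in wt (edgeR adjusted p = 6.84e-06, 2.44e-05 and 0.000153 for the 3 genes). Enah, an actin elongation factor, rose by 0.54 ± 0.14 with an edgeR adjusted p = 0.0144, a call lost without gld 1 (0.0831), gld 2 (0.0571), wt 1 (0.0645) or wt 3 (0.0887) and with library size alone (0.0655). The catenins that bind cadherins directly could hardly be followed. Ctnnb1 (β-catenin), whose last bases are all shared between transcripts, had 48, 42 and 76 counts in gld and 1, 42 and 22 in wt, with a log2 fold change of 0.88 ± 0.72 and an edgeR adjusted p = 0.505, and Ctnnd1 (p120-catenin), also with a shared end, was listed at 0. Ctnna1 (α-catenin), with a single-transcript end, was at 281 ± 11.5 CPM in gld and 328 ± 9.44 CPM in wt, with a log2 fold change of −0.23 ± 0.12 and an edgeR adjusted p = 0.239. These 3 catenins were named after their values were seen.

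Other junction adhesion molecules moved in both directions, and so did the nectin-like molecules, of which Pvr and Cadm2 fell and Cadm4 rose. Of 25 genes, 15 were tested, 3 were higher, 5 lower and 7 did not pass, with a median log2 fold change of −0.31. Nectin2, an immunoglobulin-type receptor that clusters at cadherin junctions, was at 84.7 ± 15.7 CPM in gld and 276 ± 34.2 CPM in wt and fell by 1.71 ± 0.17 on the log2 scale. Pvr, the nectin-like poliovirus receptor, fell by 2.16 ± 0.27, and Nectin1 by 1.61 ± 0.27. Alcam, an adhesion molecule of activated leukocytes and of bone marrow stroma, fell by 2.29 ± 0.21, with 40.6 ± 11.7 CPM in gld and 199 ± 15.2 CPM in wt (largest edgeR adjusted p of these 4 genes 0.000629). Nectin3 was not called, with 119, 100 and 124 counts in gld and 24, 97 and 192 in wt. Icam1, a ligand of leukocyte integrins, had 50, 81 and 67 counts in gld and 1, 0 and 0 in wt, which pools to a 134-fold higher level in gld (95% counting interval 23.7 to 5302), and its fitted log2 value of 6.67 was 8.92 without wt 1, the library that held the 1 count. Cadm4, a nectin-like molecule, had 37, 17 and 106 counts in gld and none in wt, and was at least 33.7-fold higher. Its fitted log2 value of 8.39, which depends on the prior count, was 7.48 without gld 3. Vcam1, a ligand of integrin α4β1, rose by 0.45 ± 0.11 (edgeR adjusted p = 0.00810, 0.0622 without gld 2 and 0.0776 with library size alone). Cadm2 fell by 2.17 ± 0.68 (edgeR adjusted p = 0.0397), a call lost without each library other than wt 1, with an adjusted p between 0.0610 and 0.159. Nectin1, Nectin3, Cadm4, Vcam1 and Cadm2 were added to the named genes after their values were seen.

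**Figure D3:**
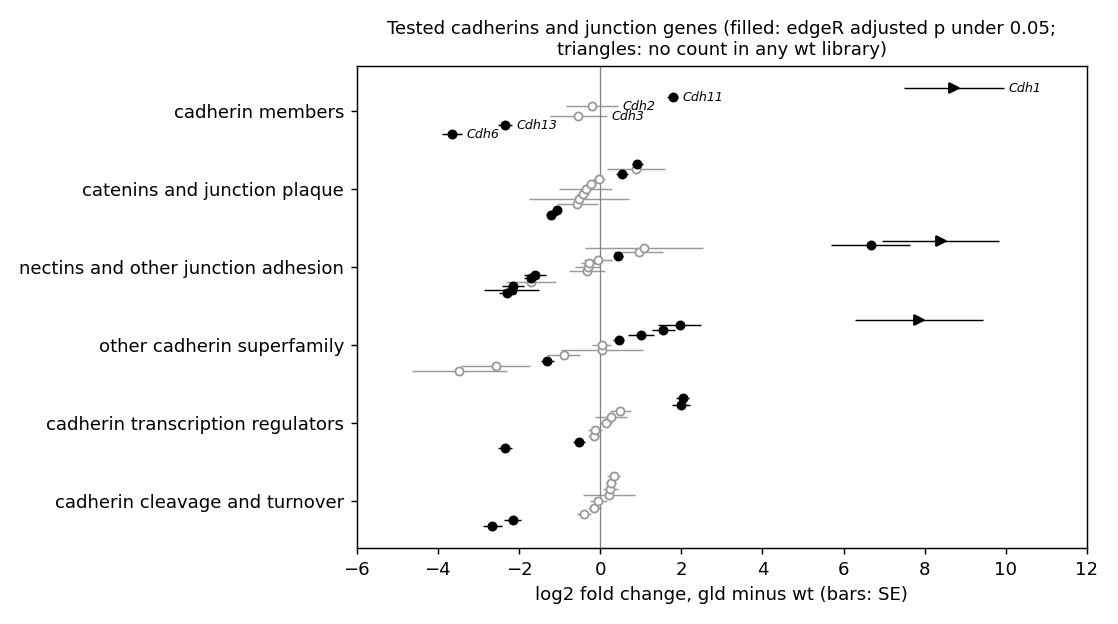
Log2 fold change, gld minus wt, with its SE, for the 6 tested cadherins and the tested genes of the 5 junction lists, 1 symbol per gene sorted by fold change. Filled symbols passed an edgeR adjusted p of 0.05, and triangles mark genes without a count in wt, whose fitted value depends on the prior count. Filled symbols lie on both sides of 0 in the cadherins and in each list except cleavage and turnover, where both called genes are lower.

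Among other members of the cadherin superfamily, 11 of 48 genes were tested, 5 were higher, 1 lower and 5 did not pass, with a median log2 fold change of 0.04, and 22 were at 0 in all libraries. Pcdh7, a protocadherin, was at 154 ± 22.9 CPM in gld and 378 ± 60.4 CPM in wt, a log2 fold change of −1.30 ± 0.16 (edgeR adjusted p = 3.17e-05). Fat4, a giant cadherin of planar polarity, was at 101 ± 16.5 CPM in gld and 33.8 ± 13.4 CPM in wt and rose by 1.56 ± 0.28 (edgeR adjusted p = 0.00105). Cdhr3, a cadherin-related receptor, had 22, 17 and 71 counts in gld and none in wt, which put its level at least 23.3-fold higher with an adjusted p = 0.00353 in edgeR. Its fitted log2 value of 7.87 was 7.03 without gld 3. Ret, a receptor tyrosine kinase with cadherin-like domains, had 136, 97 and 135 counts in gld and 3, 41 and 24 in wt and rose by 1.96 ± 0.54 (edgeR adjusted p = 0.0202). The Ret call was lost without gld 1 (0.0740), gld 3 (0.0509) or wt 3 (0.0681), and its value was 2.64 without wt 2. Clstn1 rose by 0.46 ± 0.14 (edgeR adjusted p = 0.0276), a call lost without each library other than wt 2, with an adjusted p between 0.0613 and 0.105, and with library size alone (0.143). Pcdh17 rose by 1.01 ± 0.32 (edgeR adjusted p = 0.0405), a call lost without each library in turn, with an adjusted p between 0.0732 and 0.143, and with library size alone (0.0813). These 2 genes were named after their values were seen, as was Cdh19, a type II cadherin of glia that was not tested, with 9, 25 and 37 counts in gld and none in wt. With libraries scaled by size alone this list had 3 genes higher and 3 lower.

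The transcription factors known to act on cadherin genes split in the same manner. Of 18 in the list, 9 were tested, 2 were higher, 2 lower and 5 did not pass, with a median log2 fold change of 0.13. Snai2 (Slug), known as a repressor of Cdh1 in epithelial cells, was at 291 ± 26.3 CPM in gld and 71.1 ± 7.72 CPM in wt. It rose by 2.04 ± 0.15 on the log2 scale, and any relation to the Cdh1 counts was not tested. Twist2 was at 34.9 ± 3.70 CPM in gld and 177 ± 7.82 CPM in wt and fell by 2.34 ± 0.18. Foxc2, a forkhead factor of mesenchyme, was at 147 ± 18.8 CPM in gld and 37.3 ± 10.2 CPM in wt and rose by 1.99 ± 0.23 (largest edgeR adjusted p of these 3 genes 1.64e-05). Prrx1, a homeobox factor of skeletal mesenchyme, fell by 0.51 ± 0.15 (edgeR adjusted p = 0.0312), a call lost without gld 2 (0.0518), gld 3 (0.101) or wt 2 (0.132). Snai1, Zeb1 and Twist1 were not called, with log2 fold changes of −0.13 ± 0.17, 0.13 ± 0.15 and −0.16 ± 0.15 (SE), and were looked up after the list was seen.

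Among proteases and other genes of cadherin cleavage and turnover, 9 of 23 were tested, none was higher, 2 were lower and 7 did not pass, with a median log2 fold change of −0.04. Adam12 was at 31.6 ± 8.32 CPM in gld and 199 ± 50.8 CPM in wt and fell by 2.66 ± 0.24 on the log2 scale. Adam19 was at 55.9 ± 7.07 CPM in gld and 249 ± 76.4 CPM in wt and fell by 2.16 ± 0.21 (largest edgeR adjusted p of both 3.82e-06). Adam10, the main sheddase of Cdh1 and Cdh2 and named after its value was seen, was at 154 ± 2.68 CPM in gld and 122 ± 23.9 CPM in wt, with a log2 fold change of 0.33 ± 0.17 and an edgeR adjusted p = 0.219. At an unadjusted p of 0.05, edgeR put 1 gene of the list higher, the membrane-bound metalloprotease Mmp14, with a log2 fold change of 0.27 ± 0.12. At that threshold Pcsk5 was lower, beside the 2 called genes, with a log2 fold change of −0.39 ± 0.17. Mmp14 and Pcsk5 were named after their values were seen. At the adjusted threshold DESeq2 and limma-voom called 0 higher. Without gld 2, and likewise without wt 2, edgeR called 1 gene of the list higher.

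**Figure D4:**
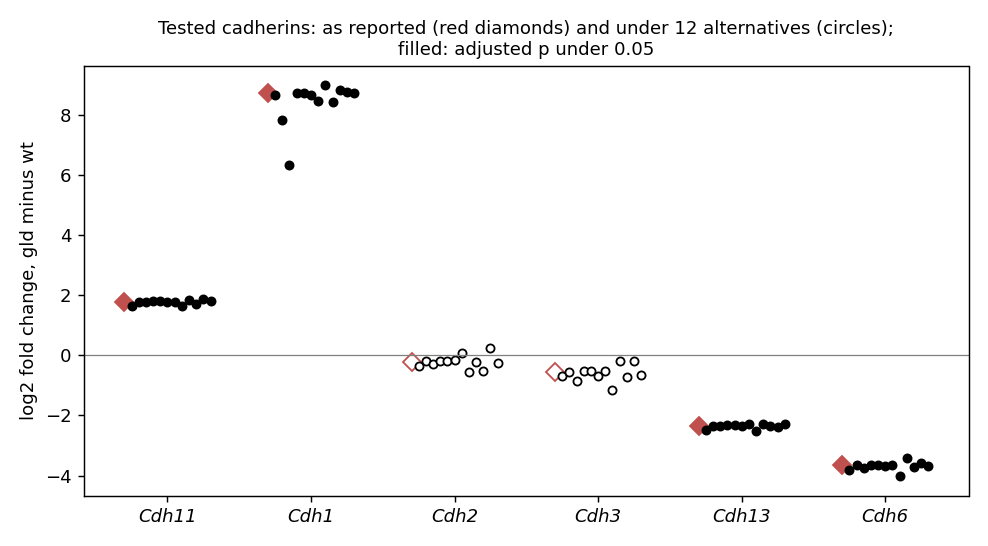
Log2 fold change, gld minus wt, of the 6 tested cadherins as reported (red diamonds) and under 12 alternatives (circles), which use other scalings, tools and filters, add the replicate number as a block or leave out 1 library. Filled symbols passed an adjusted p of 0.05. Cdh11 and Cdh1 stay above 0 and Cdh13 and Cdh6 below 0, filled, under all 12, while Cdh2 lies on either side of 0 and neither Cdh2 nor Cdh3 is filled anywhere.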

How the data were processed

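Libraries were made from total RNA with the QuantSeq 3′ mRNA-Seq FWD kit, per the labels' protocols. Per the series' design text, single reads of 75 nt were trimmed with Cutadapt and aligned with STAR. The submitters' processing notes also name FastQC, Trim Galore, DESeq2 and mm10, each with no version. Which program counted the reads, with what strand setting and annotation, is not given in the sources used here. The deposited values are raw read counts per Ensembl gene, not normalized by the authors. 1 row without an identifier or counts was left out, and 0 sample columns were left unused.

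Genes passing filterByExpr (about 10 counts in 3 libraries and 15 in total) were scaled by TMM and tested over all 6 libraries, gld against wt, with edgeR 4.0.16 in R 4.3.3 by the quasi-likelihood test, without covariates, with Benjamini-Hochberg adjustment over all 8692 genes. SEs and 95% intervals of log2 fold changes follow from the F statistic of that test. The test was tried on simulated data with known answers. The 12 alternatives include limma 3.58.1 and DESeq2 1.42.0. Symbols, positions and coding bases come from GENCODE M21 (GRCm38, the build that mm10 names).

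The members, lists and named-gene rule were chosen with earlier results of these data known. Named genes are the 10 members, up to 4 called genes of each list in order of adjusted p, and the 3 genes most like Cdh11. Genes outside the rule are marked. Floors are 3 counts, intervals are 95%, and both cover counting error only.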

Additional observations from a re-analysis of the deposited data

How the results depend on the processing

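The directions and calls of Cdh11, Cdh1, Cdh6 and Cdh13 held under all 12 alternatives, and 2 cadherins were called higher and 2 lower under each. Cdh1 had 0 counts in each wt library and passed the filter through gld alone, so its holding adds no support to its call. Cdh2, not called anywhere, had a log2 fold change of 0.07 without gld 1 and 0.25 without wt 2, in a range from −0.57 to 0.25 when each library was left out. With library size alone, 1 catenin and plaque gene was higher and 4 lower, and in the cadherin superfamily 3 were higher and 3 lower. DESeq2 and testing without a filter also gave 3 superfamily genes lower. With 1 library left out, catenin and plaque genes called higher ranged from 1 to 2, superfamily genes higher from 2 to 5 and lower from 1 to 2, transcription regulators lower from 1 to 2 and cleavage genes higher from 0 to 1. The causes were not tested. The replicate numbers did not pair the libraries: the deviations of same-numbered libraries had correlations of −0.02, −0.01 and −0.02, and no library correlated best with its own number. With the replicate number as a block, 760 genes were higher and 599 lower instead of 847 and 668, no cadherin call changed, and Cadm2 and Pcdh17 were lost. Depth limits the members with few counts, Cdh2, Cdh3, Cdh4 and Cdh15.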
